A study of Glycyrrhiza uralensis with 15 samples.

Results

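The genes described here are the 100 whose levels differed most between libraries of the same treatment in a nanopore cDNA study of Glycyrrhiza uralensis, the licorice plant. They were chosen among the 7827 genes with a mean of 20 to 500 CPM (reads scaled to a fixed total for each library) over 15 libraries, out of 30197 genes in the deposited table. The variance of log2(CPM + 1) was taken inside each of the 5 groups, and the mean of the 5 variances ranked the genes. The spread inside groups therefore chose the members, and it is given as a description with no test.

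All libraries came from whole plants at 45 days, with 3 libraries in each of 5 groups. Seedlings labelled DBSi were droughted and received both the bacterium Bacillus pumilus G5 and silicon, with no moisture or silicon dose in the labels. DSi seedlings were watered to 35 to 45% of the saturation moisture and given 2 mM silicon, DB seedlings were held at the same moisture and given G5, and D seedlings were held at the same moisture with no addition. CK seedlings were watered to 65 to 75% with neither addition. All groups were sown at 60 seeds in a pot of 1900 g of sterilized desert sand without nutrients. No label states that a group's libraries were taken from separate pots, and the p-values therefore cover a spread between samples that may be technical. Libraries are named by group and replicate number, which carries no order.

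Glycyrrhiza uralensis is a legume of dry regions, grown for the saponins of its roots and stolons. Bacillus pumilus is a soil bacterium used as a plant inoculant, and silicon is taken up by roots as silicic acid and deposited in cell walls. Whole seedlings hold root and shoot cells in one RNA sample, so fewer cells of a type and less RNA per cell cannot be told apart. A nanopore cDNA read is meant to span a transcript, so a read is assigned to a gene by its full length rather than by a short fragment.

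The libraries held 3039422 to 4043823 reads, and 1 read was worth 0.247 to 0.329 CPM. A gene with 0 reads may stand at up to 3 reads, or 0.742 to 0.987 CPM, a floor for counting error only, since reads copied by PCR were not marked by molecule. The files give IDs with no gene names, so the roles of the members and the markers of root and shoot could not be looked up. Of the 100 members, 83 carried IDs of the reference form (Glyur) and 17 carried IDs beginning with ONT, against 196 ONT genes (2.5%) in the window of 7827.

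The members' pooled variance ran from 11.5 at rank 1 to 2.09 at rank 100, which are standard deviations of 3.39 and 1.45 on the log2 scale. Their median SD was 1.85, against 0.261 for all genes of the window. Their mean levels lay between 20.01 and 389 CPM, with a median of 45.8 CPM. The variance was 35.8 times the variance of read counting or more in every member, with a median of 175 times, against a median of 5.63 times in the window. The members' ratio follows from a choice on high variance, and the counting variance treats reads copied by PCR as separate molecules.

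The limit at rank 100 was not a gap. Glyur001058s00023530, Glyur002321s00035197 and Glyur000136s00007960 were ranked 98 to 100 with variances of 2.10, 2.10 and 2.09. Glyur002126s00036414, Glyur000330s00019519 and Glyur002492s00047271 just missed the choice with 2.07, 2.05 and 2.05. Glyur000136s00007960 stood at 31.5, 3.14 and 2.79 CPM in DBSi, 113, 31.5 and 37.3 CPM in DSi, 91.8, 34.4 and 6.52 CPM in DB, 26.1, 24.7 and 49.2 CPM in D, and 98.4, 159 and 16.8 CPM in CK.

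The members' spread sat in some groups more than in others. The widest group was DB in 35 members and CK in 29, D in 15, DSi in 11 and DBSi in 10. Over the window DB was the widest group in 23.8% of genes, D in 22.5%, CK in 20.1%, DBSi in 19.3% and DSi in 14.3%. The median SD of the members was 1.32 in DBSi, 1.14 in DSi, 2.07 in DB, 1.29 in D and 1.89 in CK. The window's medians lay between 0.215 and 0.245 in every group.

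The extreme values were spread unevenly over the libraries. For each member the library farthest from its group mean was noted, and it was DB-3 in 28 members, CK-3 in 13 and D-2 in 13. The value was low in 27 of the 28 cases in DB-3, in 11 of 13 in CK-3 and in all 13 in D-2. CK-1 and CK-2 followed with 9 each, and CK-2 was the high one in 7 of its 9. Over the window DB-3 was farthest in 13.6% of genes, D-2 in 13.0%, CK-2 in 10.2%, CK-3 in 5.51% and CK-1 in 4.52%. The members' counts in D-2 and CK-2 thus lay near the window's shares, and those in DB-3, CK-3 and CK-1 lay above them. D-1 was farthest in 0 members, and DB-1, DBSi-2 and D-3 in 1 each.

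The median member stood at 23.6, 9.41 and 15.2 CPM in DBSi-1 to DBSi-3, and at 55.7, 23.9 and 36.8 CPM in DSi-1 to DSi-3. It stood at 44.5, 30.1 and 2.79 CPM in DB, at 25.1, 9.21 and 35.4 CPM in D, and at 54.7, 76.5 and 16.0 CPM in CK. The second library was the low one in DBSi, DSi and D, and the third in DB and CK. DB-3 was the lowest library of its group in 69 of 100 members, while CK-3, D-2 and DSi-2 were lowest in 52 each and DBSi-2 in 49. The members' median deviation from the group mean was -1.87 in DB-3 and -1.26 in CK-3, whereas the window's medians lay between -0.093 and 0.086 over the 15 libraries.

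CK-3, DB-3 and D-2 were the lowest of their groups together in 34 of 100 members and the highest together in 0. Among the other 7727 genes of the window they were lowest together in 584 (7.56%) and highest together in 430 (5.56%). The deviations of the members in these libraries were not parallel throughout. Pearson's r across the 100 members was 0.20 between CK-3 and DB-3, 0.20 between CK-3 and D-2, and -0.07 between DB-3 and D-2, against 0.35, 0.24 and 0.08 across the other 7727 genes. CK-3 and DSi-2 gave 0.32 across members and 0.36 across the other genes. Genes are not independent replicates, so these correlations are descriptions, and of 90 pairs of libraries from different groups 56 had the same sign in both sets.

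**Figure D1:**
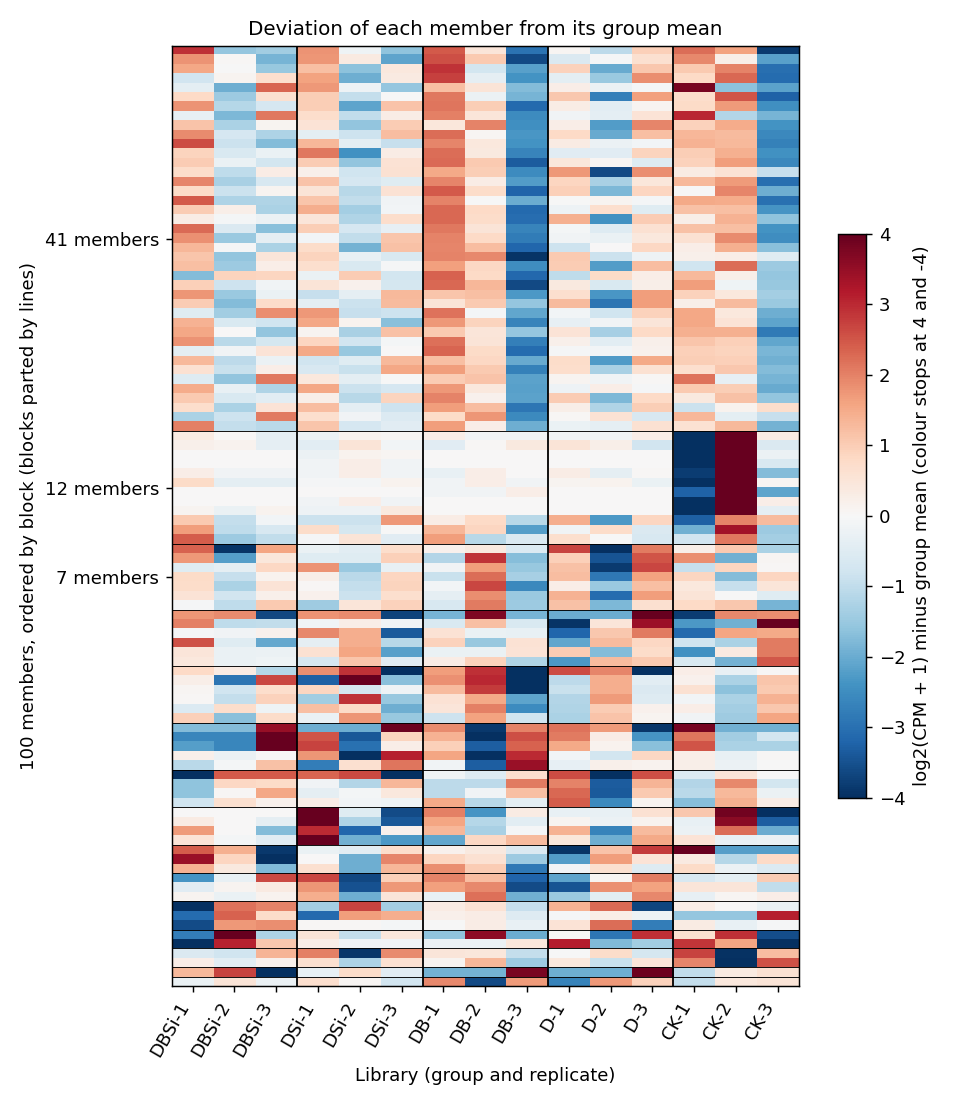
Deviation of each of the 100 members from its group mean, in log2(CPM + 1), with members in rows ordered by block, the 15 libraries in columns, and colours that stop at 4 and -4. The largest block of 41 members is low in DB-3 and CK-3 together, and the 12 members of the second block are high in CK-2.

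When members were joined by the correlation of their deviations (average linkage, distance limit 0.6, chosen after the values were seen), they formed 15 blocks. The largest held 41 members, the second 12 and the third 7. A limit of 0.5 left 35 members in the largest block, all of them among the 41, and a limit of 0.7 gave 52, which held all 41. The second block kept its 12 members at each limit.

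The 41 members of the largest block were low in the same libraries, which follows in part from joining members by these deviations. All 41 were lowest in DB-3 within DB and 40 were lowest in CK-3 within CK, while 31 were lowest in D-2, 29 in DSi-2 and 24 in DBSi-2. At the other end 36 were highest in DB-1, 33 in DBSi-1 and 26 in DSi-1. Their median level was 29.1, 7.41 and 14.0 CPM in DBSi, 101.1, 29.4 and 64.5 CPM in DSi, 68.1, 35.9 and 2.48 CPM in DB, 26.1, 8.55 and 38.3 CPM in D, and 92.9, 84.5 and 9.58 CPM in CK. The summed level was 232 CPM in DB-3 against 5532 CPM in DB-1, and 565 CPM in CK-3 against 5952 CPM in CK-1 and 5947 CPM in CK-2.

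Within CK, the mean of CK-1 and CK-2 was a median of 10.3 times CK-3 over the 41 members. The mean of DB-1 and DB-2 was a median of 19.5 times DB-3 over the 31 members with more than 3 reads there. The gap was smaller in D, where the mean of D-1 and D-3 was a median of 1.91 times D-2 over 37 members. These ratios describe the libraries whose low values brought the genes into the choice.

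**Figure D2:**
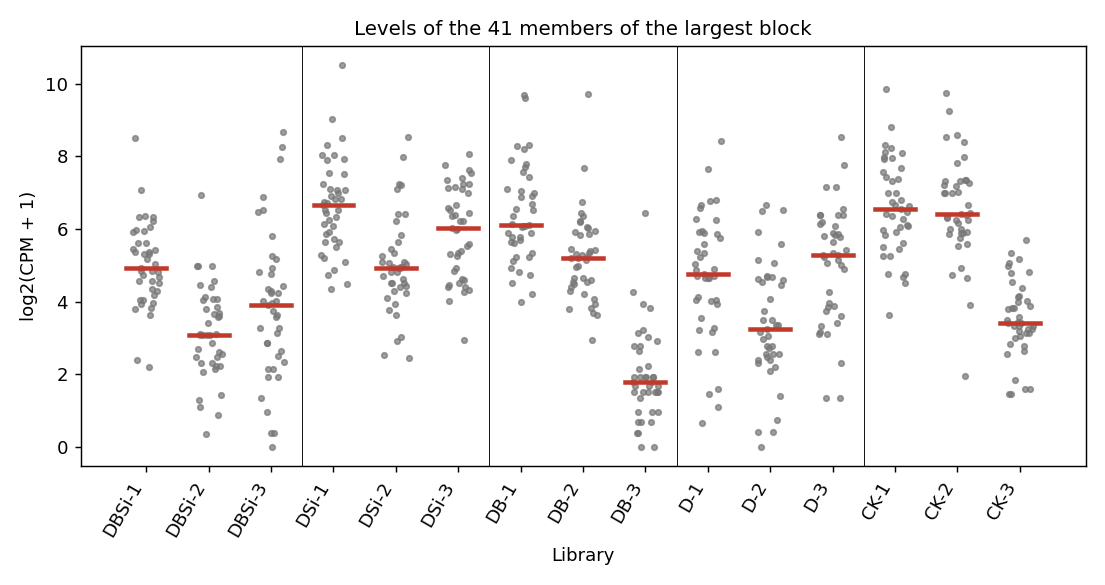
Level of each of the 41 members of the largest block as log2(CPM + 1) on the vertical axis, by library on the horizontal axis, where points are genes and bars are medians. The median is 2.48 CPM in DB-3 and 9.58 CPM in CK-3, below the other libraries of those groups.

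Glyur000334s00019199, at rank 21 the highest-ranked of the block and chosen after its values were seen, stood at 366, 15.7 and 17.7 CPM in DBSi, 1462, 367 and 136 CPM in DSi, 819.8, 205 and 18.3 CPM in DB, 200.1, 91.8 and 368 CPM in D, and 917, 606 and 12.8 CPM in CK. The mean of the other CK libraries was 59.6 times CK-3, the mean of the other DB libraries was 28.0 times DB-3, and the mean of the other D libraries was 3.09 times D-2. Every group overlapped every other in this gene.

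Glyur000606s00017345, chosen likewise, was at 41.5, 13.4 and 4.03 CPM in DBSi, 239.8, 33.0 and 141 CPM in DSi, 308, 24.2 and 8.38 CPM in DB, 59.3, 6.91 and 66.5 CPM in D, and 203, 387 and 11.03 CPM in CK. Glyur003371s00038967, also chosen after its values were seen, was at 60.7, 11.98 and 54.9 CPM in DBSi, 319.8, 83.4 and 161 CPM in DSi, 219, 42.7 and 13.0 CPM in DB, 95.2, 5.92 and 141 CPM in D, and 244, 854 and 15.1 CPM in CK. In both genes DSi-2 and D-2 were low beside DB-3 and CK-3, and the DBSi libraries lay below the highest libraries of DSi and CK.

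Glyur000321s00019416 and Glyur000321s00019413 were members, named after their values were seen, whose IDs share a prefix and differ by 3 in the last number. The first stood at 42.7, 3.42 and 8.69 CPM in DBSi, 90.8, 48.9 and 214 CPM in DSi, 68.1, 29.8 and 1.55 CPM in DB, 24.1, 22.4 and 36.2 CPM in D, and 66.7, 163 and 6.97 CPM in CK. The other stood at 48.4, 16.5 and 37.6 CPM in DBSi, 35.8, 30.01 and 169.6 CPM in DSi, 58.3, 38.1 and 1.86 CPM in DB, 100.04, 24.7 and 93.6 CPM in D, and 47.6, 63.2 and 8.13 CPM in CK. Both were lowest in DB-3 and CK-3, with r = 0.90 between their deviations over the 15 libraries. The members held 6 pairs with a shared prefix, and r ran from -0.29 to 0.95 over them.

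Most of the block was graded rather than all-or-none in the gene counts. Of its 41 members, 37 had at least 1 read in every library, and 4 were at 0 in a library. In DB-3 only 31 of the 41 had more than 3 reads, the floor for counting error. For the rest, a low level and an absence in DB-3 cannot be told apart. Graded members, 64 in all, were never at 0 in one library beside 20 CPM or more in another of the same group. They held 39 of the 41 members of the block, and the other 2 were all-or-none. Clustering the 64 on the same deviations gave a largest block of 41, of which 38 were shared with the block described above. At most 39 could be shared, so the overlap is a description of the block and no test. Only 2 of its 41 members carried ONT IDs.

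The second block followed CK-2. All 12 members were high in CK-2, with a mean deviation of 4.54 on the log2 scale. They summed to 24.9, 14253 and 310 CPM in CK-1 to CK-3, and CK-1 was the lowest CK library in 11 of 12. ONT.13374, the member with the largest positive deviation in CK-2, stood at 0.901, 0.855 and 0.31 CPM in DBSi, 0, 0.9 and 0.247 CPM in DSi, 0.598, 1.23 and 1.86 CPM in DB, 1.43, 0.987 and 0 CPM in D, and 0.971, 4996 and 53.1 CPM in CK. Glyur002183s00035941, the member with the largest negative deviation in CK-1, stood at 0, 3021 and 76.1 CPM in CK and at 0.601 CPM or less in each of the other 12 libraries.

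Searching all 30197 genes for this pattern, a search made after the values were seen, gave 40 genes with 20 CPM or more in CK-2 and at least 10 times the level of every other library. The same search gave 5 genes for CK-1, 2 each for CK-3 and D-2, and 1 or 0 for each of the other 11 libraries. Of the 40, 10 lay in the window and all 10 were members, and 13 carried ONT IDs. They summed to 17163 CPM in CK-2, or 1.72% of its reads (95% Wilson interval 1.70 to 1.73%, counting error only). In CK-3 they summed to 313 CPM, in CK-1 to 23.9 CPM, and in each library of the other groups to between 4.85 and 26.4 CPM.

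CK-3 was the next highest library in 25 of the 40. In the 24 genes with more than 3 reads in CK-3, CK-2 was a median of 42.5 times CK-3, with a range of 11.7 to 328 times. A gene had a median of 3 reads over the other 13 libraries together, and at most 216. What these genes encode could not be looked up from IDs alone.

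**Figure D3:**
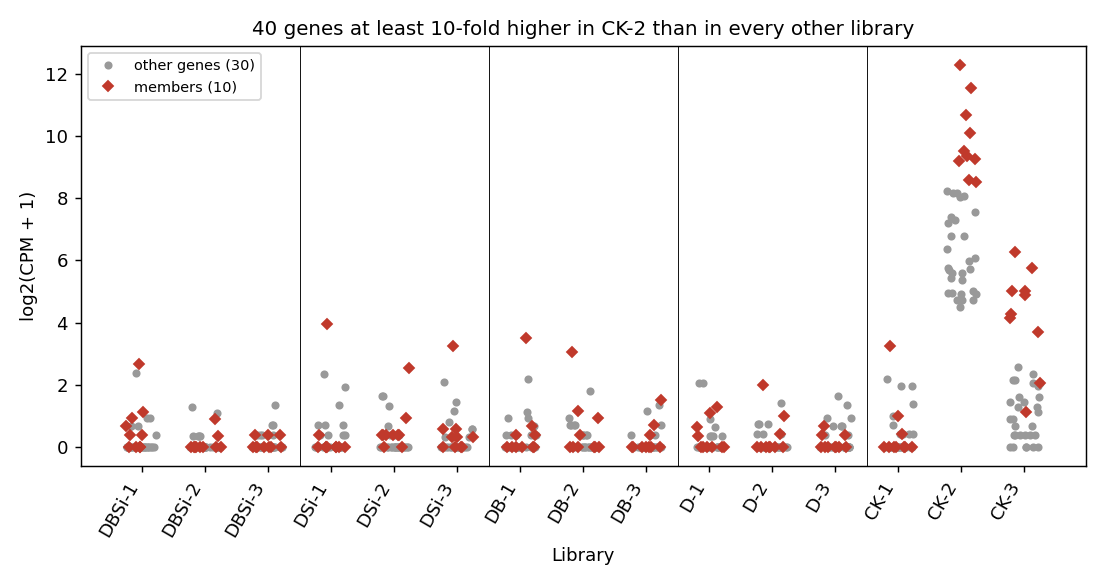
Level of the 40 genes with 20 CPM or more in CK-2 and at least 10 times every other library, as log2(CPM + 1) by library, with the 10 members in red and the other 30 genes in grey. They are high in CK-2, where they sum to 17163 CPM, and weaker in CK-3, where they sum to 313 CPM.

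The third block of 7 members was low in D-2, which was the lowest D library in all 7 with a mean deviation of -3.04. DB-3 was the lowest DB library in all 7 and DB-2 the highest in all 7. Glyur001752s00036785, ranked 28 and named after its values were seen, stood at 116, 6.56 and 46.9 CPM in DBSi, 88.7, 89.1 and 239 CPM in DSi, 0.897, 30.4 and 0.31 CPM in DB, 33.8, 0.658 and 101.5 CPM in D, and 51.8, 2.85 and 14.5 CPM in CK. Here CK-2 was the low CK library, unlike in the largest block.

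The smaller blocks followed other libraries. The fifth, of 6 members, was high in DB-2 in all 6 and lowest in DB-3 in 5, with mean deviations of 2.32 and -3.15. The sixth, of 5 members, went the other way inside DB, being lowest in DB-2 and highest in DB-3 in all 5. The eighth, of 4 members, was high in DSi-1 in all 4 with a mean deviation of 3.97. D-2 and CK-3 were therefore not low in every block. In the fifth, D-2 was the highest D library and CK-3 the highest CK library in 5 of 6 members each. In the fourth, of 6 members, CK-3 lay above its group mean in all 6, with a mean deviation of 2.37.

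ONT.14001 and ONT.173, ranked 4 and 8, belonged to the sixth block. ONT.14001 stood at 0, 0 and 232 CPM in DBSi, 58.2, 0 and 18.3 CPM in DSi, 40.05, 0 and 93.1 CPM in DB, 143, 41.1 and 5.77 CPM in D, and 17.2, 0.569 and 1.45 CPM in CK. ONT.173 stood at 0.3, 0 and 168 CPM in DBSi, 50.4, 0 and 8.41 CPM in DSi, 18.2, 0 and 49.4 CPM in DB, 68.2, 26.0 and 6.68 CPM in D, and 12.6, 0 and 0 CPM in CK. The order of the libraries was alike in both genes, with DBSi-3 highest and D-1 next.

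Glyur001944s00035555 and Glyur001944s00035546, of the eighth block, had IDs with a shared prefix and r = 0.95 between their deviations. The first, at rank 9 and with the largest negative deviation in CK-3, stood at 0, 0 and 0 CPM in DBSi, 296, 11.7 and 0.495 CPM in DSi, 26.0, 0.307 and 7.45 CPM in DB, 0, 0 and 0.911 CPM in D, and 62.8, 435 and 0 CPM in CK. The other stood at 0.601, 0.285 and 0 CPM in DBSi, 318, 4.8 and 0.247 CPM in DSi, 11.7, 0.921 and 2.17 CPM in DB, 0.287, 0 and 0.304 CPM in D, and 18.4, 294 and 1.45 CPM in CK. Both were high in DSi-1 and CK-2 and at or below the floor in D and DBSi.

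ONT.5273, at rank 7, was at 0.3, 143 and 2.79 CPM in DBSi, 19.9, 6.6 and 19.3 CPM in DSi, 0.299, 45.4 and 0 CPM in DB, 8.6, 0.329 and 72.9 CPM in D, and 22.3, 112 and 0.29 CPM in CK. ONT.5576, with the largest positive deviation in CK-3, was at 9.61, 0.285 and 0.31 CPM in DBSi, 0, 0.3 and 0 CPM in DSi, 0, 2.46 and 0 CPM in DB, 0.287, 26.3 and 209 CPM in D, and 0, 0.285 and 90.9 CPM in CK. Glyur000357s00018132, with the largest negative deviation in CK-2, was at 214, 131 and 199 CPM in DBSi, 412, 112 and 408 CPM in DSi, 109.7, 258 and 36.3 CPM in DB, 419.7, 168 and 442 CPM in D, and 214, 1.42 and 319 CPM in CK. ONT.5273 was lowest in DB-3, D-2 and CK-3 together, whereas CK-3 was the highest CK library of the other genes named here.

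A second kind of member switched between 0 and a high level in the gene counts. In 36 members at least 1 group held a library with 0 reads beside a library of 20 CPM or more. These 36 were all the genes of the window with that pattern, 0.46% of 7827. In 18 of them it occurred in 2 or more groups and in 2 of them in all 5. A median of 3.5 libraries stood at 0 in these genes, and of the 44 window genes at 0 in any library, 43 were members. All-or-none genes are raised to the top by the choice itself, so their share is a description. ONT.7442 is among the 36, and isoforms with its ID held 30 reads or more in all 15 libraries. Isoforms with ONT IDs were also joined to genes with Glyur IDs, so whether these reads belong to the gene ONT.7442 is not known. A 0 in its gene counts may therefore not be an absence of reads, which was not tested.

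For 16 of the members, another gene of the table was at 10 CPM or more wherever the member was at 0, and the summed level of both varied by no more than 10% of the variance of either. The partner was sought among 274 genes that had, in at least 1 group, a library with 0 reads beside a library of 10 CPM or more. It was chosen for its fit, so the match has no test, and some genes matched more than 1 partner. Reads shared between near-identical copies of a gene can be split by the counting, whose method is not given in the sources used here, as are its use of strand and of overlapping genes. The levels of the single genes below are uncertain for that reason, and their similarity in sequence was not tested.

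Glyur002896s00038176 and Glyur005006s00041819, ranked 2 and 3, were never both above 0. Glyur002896s00038176 stood at 0, 0 and 36.6 CPM in DBSi, 0, 0 and 58.6 CPM in DSi, 52.9, 0 and 56.2 CPM in DB, 64.8, 47.0 and 0 CPM in D, and 53.1, 0 and 0 CPM in CK. Glyur005006s00041819 stood at 40.9, 44.5 and 0 CPM in DBSi, 44.5, 46.8 and 0 CPM in DSi, 0, 48.2 and 0 CPM in DB, 0, 0 and 62.0 CPM in D, and 0, 52.4 and 49.9 CPM in CK. Each library held 1 of them, and their sum lay between 36.6 and 64.8 CPM in all 15. The pooled SD of the sum was 0.165 on the log2 scale, against 3.29 and 3.27 for the genes alone and 0.261 for the median gene of the window.

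Glyur000369s00020533, the most variable member and the one with the largest negative deviation in D-2, was paired with Glyur000116s00009259. It stood at 0, 165 and 166 CPM in DBSi, 155, 194 and 0 CPM in DSi, 61.6, 47.6 and 111 CPM in DB, 223, 0 and 219 CPM in D, and 102, 215 and 149.5 CPM in CK. Glyur000116s00009259 stood at 222, 35.6 and 0 CPM in DBSi, 79.0, 19.5 and 311 CPM in DSi, 145, 122 and 28.6 CPM in DB, 15.8, 251 and 113 CPM in D, and 127, 44.4 and 174 CPM in CK. Both were present in 11 libraries, in proportions that changed from library to library. Their sum was 139.7 to 332 CPM, with an SD of 0.257, against 3.39 and 2.29 for the genes alone.

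Glyur005404s00043770, at rank 5, stood at 126, 90.1 and 31.7 CPM in DBSi, 97.98, 200.2 and 0 CPM in DSi, 76.2, 181 and 0 CPM in DB, 147, 92.5 and 0 CPM in D, and 100.3, 67.7 and 87.1 CPM in CK. Its partner Glyur000893s00030782 stood at 123, 90.1 and 108 CPM in DBSi, 98.3, 0 and 255 CPM in DSi, 70.2, 0 and 184 CPM in DB, 147, 93.4 and 282 CPM in D, and 100.6, 67.7 and 87.4 CPM in CK. In the 10 libraries where both were present, their levels were within 5% of each other in 8. In the others 1 was absent, and the sum stayed between 135 and 294 CPM over all 15, with an SD of 0.306 against 3.18 and 2.65 alone.

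Glyur007555s00045821, with the largest positive deviation in DB-3, stood at 37.9, 101.2 and 0 CPM in DBSi, 58.8, 120.4 and 52.4 CPM in DSi, 0, 0 and 51.2 CPM in DB, 0, 0 and 57.4 CPM in D, and 32.7, 85.1 and 102 CPM in CK. Glyur001681s00028854 stood at 39.95, 33.9 and 156 CPM in DBSi, 59.4, 0 and 53.9 CPM in DSi, 140.2, 139 and 51.8 CPM in DB, 95.5, 163 and 58.6 CPM in D, and 98.4, 0 and 35.4 CPM in CK. Where Glyur007555s00045821 was at 0, its partner was at 95.5 to 163 CPM. The sum had an SD of 0.357, against 2.68 and 2.29 alone.

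**Figure D4:**
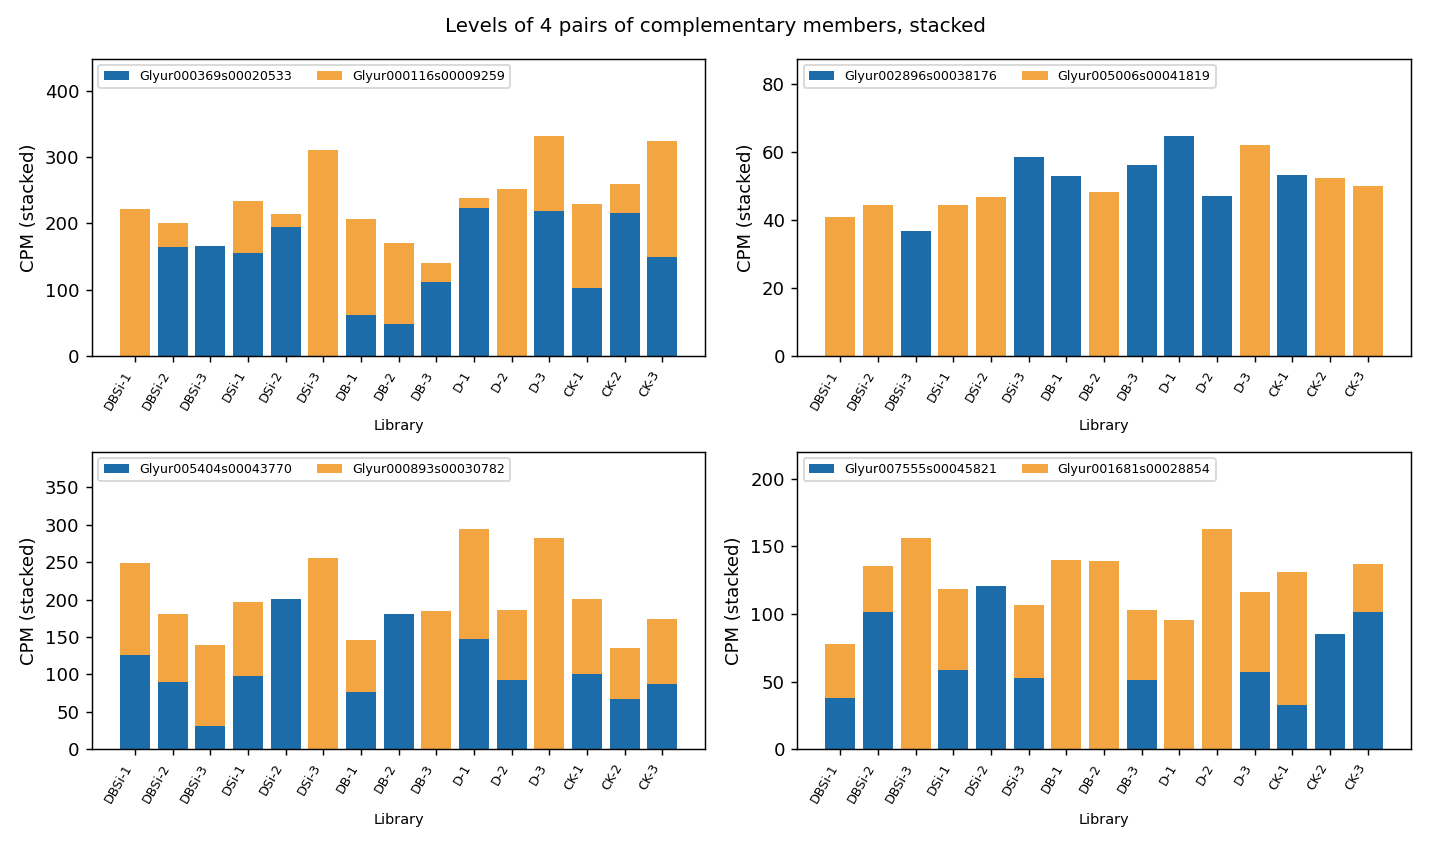
Stacked CPM of both genes of each of 4 pairs of members, by library, where the height of a bar is their sum. In each pair a gene is at 0 where its partner is high, and the sum varies less than either gene, as for Glyur002896s00038176 and Glyur005006s00041819, where it lies between 36.6 and 64.8 CPM.

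Another pair held nearly equal levels without a steady sum. Glyur003208s00043986, at rank 10 and with the largest positive deviation in CK-1, stood at 76.3, 37.9 and 0 CPM in DBSi, 54.4, 49.2 and 109 CPM in DSi, 59.2, 68.8 and 35.1 CPM in DB, 0, 32.9 and 104.8 CPM in D, and 97.1, 0 and 0 CPM in CK. Glyur002281s00047890 stood at 76.3, 0 and 44.4 CPM in DBSi, 54.4, 48.9 and 109 CPM in DSi, 58.9, 68.4 and 35.1 CPM in DB, 177, 0 and 116 CPM in D, and 97.1, 170.5 and 33.7 CPM in CK. In the 9 libraries with both at 20 CPM or more, they lay within 5% of each other in 8.

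Glyur000887s00036468, at rank 6 and with the largest negative deviation in DB-3, stood at 10.5, 0.285 and 61.1 CPM in DBSi, 0, 289.9 and 1.98 CPM in DSi, 102, 233 and 0 CPM in DB, 43.0, 249 and 67.4 CPM in D, and 117, 42.7 and 225 CPM in CK. Glyur001036s00023758, with the largest positive deviation in D-2, stood at 0, 79.3 and 69.5 CPM in DBSi, 0, 15.6 and 0 CPM in DSi, 44.2, 53.4 and 18.3 CPM in DB, 32.7, 60.5 and 0 CPM in D, and 45.6, 38.4 and 31.1 CPM in CK. Both matched partners less closely, with a pooled SD of the sum of 0.5998 and 0.470.

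Isoform reads were complete for 90 of the 100 loci, and 52 of the 90 had a single isoform. Glyur000055s00004592 had the most among these 90, 11. Its leading isoform held 170 of 330 reads in DBSi-1 (51.5%, 95% Wilson interval 46.1 to 56.9%), 9 of 430 in DSi-2 (2.09%, 1.10 to 3.93%) and 96 of 148 in CK-3 (64.9%, 56.9 to 72.1%). The gene itself was high in DSi-2, at 129 CPM, against 31.1 CPM in DSi-1 and 12.4 CPM in DSi-3. Over all members ONT.7442 had the most isoforms by ID, 31, but their reads did not add up to those of the gene. The gene was at 0 in DB-2 and D-1, where isoforms with its ID held 728 and 510 reads.

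In Glyur002887s00038680 the leading isoform, ONT.19640.1, took either all reads or none. It held 0 of 52 reads in DBSi-1, which allows a share of up to 5.77%, and 0 of 62 in DSi-1, which allows up to 4.84%. It held 167 of 167 reads in DSi-3, 73 of 73 in DB-1, 211 of 211 in D-1 and 199 of 199 in CK-2. The libraries without it were DBSi-1, DBSi-2, DSi-1, DB-3 and CK-3, of which the last 2 are the low libraries of the largest block and held 9 and 7 reads.

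In Glyur000038s00004512 the leading isoform, ONT.2342.4, held 474 of 479 reads in DSi-1, 216 of 218 in DB-1 and 0 of 117 in DB-2, which allows up to 2.56%. It held 0 of 32 reads in D-3, which allows up to 9.38%, and 71.1% of 388 reads in CK-1 (66.4 to 75.4%). A leading isoform with 99% or more of reads in one library and 1% or less in another, both with 30 reads or more, occurred in 3 of 90 member loci and in 138 of 7443 loci of the window (1.85%). The third such member was ONT.17894, whose leading isoform held 5740 of 5740 reads in CK-2 and 0 of 107 in CK-3, which allows up to 2.80%. Libraries of a group thus differed in the isoform counted as well as in the level of these genes.

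The spread was also measured in groups that took no part in the choice. When the 100 most variable genes were chosen on 4 groups and read in the fifth, their median SD there was 1.13 in DBSi, 1.07 in DSi, 1.79 in DB, 0.844 in D and 1.51 in CK. The window's median SD in those groups was 0.237, 0.214, 0.238, 0.245 and 0.222. Of the 100 genes, 72, 78, 77, 67 and 83 lay above the 90th percentile of the window in the group left out. Between 79 and 89 of each 100 were members, and 44 members were chosen in all 5 rounds.

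The comparisons of the study were then made on group means, which the choice did not use, although the choice raises the spread that the test divides by. The standard error of a log2 difference had a median of 1.26 in the members tested, against 0.32 over all 22654 genes tested. Of the 100 members 93 had 1 CPM or more in at least 3 libraries and were tested. The 7 left out were all of the second block, high in CK-2 alone or in CK-2 and CK-3.

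Over the 5 groups, 2 of 93 members (2.15%) passed limma's moderated F-test at an adjusted p of 0.05, against 4.36% of all genes tested. Unadjusted, 8 members (8.6%) passed, against 18.3% of all genes. edgeR called 5 members (5.38%), of which 3 belonged to the block high in CK-2, against 4.79% of all genes. DESeq2, which used a likelihood ratio test and gave an adjusted p for 90 members, called 7 of them (7.78%), against 9.58% of all genes. By limma and DESeq2 the members' share thus lay below that of all genes, and by edgeR it lay close to it.

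In the pairwise comparisons limma called 0 members. In D against CK limma called 0.0486% of all genes and 0 members, and 17 members (18.3%) stood at an unadjusted p under 0.05, against 7.97% of all genes. edgeR called 0 members there, against 0.0221% of all genes, and DESeq2 called 4 (4.44%), against 0.422%. Without CK-1 limma called 2 members in D against CK, ONT.13374 and ONT.17712, both of the block high in CK-2.

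In DB against D limma called 0.49% of all genes and 0 members, and 4 members (4.3%) stood at an unadjusted p under 0.05, against 12.2% of all genes. edgeR called 0 members, against 0.38% of all genes, and DESeq2 called 2 (2.22%), against 2.63%. In DSi against D limma called 0.0265% of all genes and 0 members, and 11 members (11.8%) stood at an unadjusted p under 0.05, against 7.96% of all genes. edgeR called 0 members, against 0.0221% of all genes, and DESeq2 called 1 (1.11%), against 0.732%.

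In DBSi against D, the comparison with the most calls of the 4, limma called 6.18% of all genes and 0 members. At an unadjusted p under 0.05 stood 3 members (3.23%), against 19.8% of all genes. edgeR and DESeq2 called 0 members, against 6.16% and 8.99% of all genes. At the unadjusted threshold the members' shares lay below those of all genes in DB and in DBSi against D. They lay above them in D against CK and in DSi against D, and these shares were not tested against each other. The comparisons share the D libraries, so they are not independent of each other. The members' median difference in size was 1.56 on the log2 scale in D minus CK, against 0.23 over all genes tested. It was 0.93 in DB, 1.65 in DSi and 0.97 in DBSi minus D, against 0.28, 0.23 and 0.33. Genes chosen for a wide spread have means with more error, so larger differences in size follow in part from the choice.

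Glyur001117s00026958 and Glyur002055s00039240 were the 2 members that passed the F-test, named after their values were seen. Glyur001117s00026958 stood at 0.3, 0 and 0.31 CPM in DBSi, 51.3, 3.9 and 25.7 CPM in DSi, 2.09, 16.3 and 0 CPM in DB, 0.287, 1.65 and 12.5 CPM in D, and 66.0, 88.2 and 102 CPM in CK. All 3 CK libraries lay above the other 12, and all 3 DBSi libraries lay at or below the floor. It averaged 0.204 ± 0.18 CPM in DBSi, 27.0 ± 23.7 in DSi, 6.12 ± 8.85 in DB, 4.80 ± 6.67 in D and 85.3 ± 18.0 in CK (SD, n = 3 each). The adjusted p of limma's F-test was 0.0125, and over the other limma settings run it lay between 0.00466 and 0.0414. It was 0.013 in edgeR's F-test and 0.00144 in DESeq2's likelihood ratio test.

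Glyur002055s00039240 stood at 1.5, 0.285 and 4.34 CPM in DBSi, 24.0, 92.1 and 124 CPM in DSi, 7.17, 53.7 and 3.72 CPM in DB, 14.6, 0.987 and 9.72 CPM in D, and 215, 262 and 33.4 CPM in CK. CK and DSi overlapped, and DBSi overlapped D and DB. It averaged 2.04 ± 2.08 CPM in DBSi, 80.0 ± 51.1 in DSi, 21.5 ± 27.9 in DB, 8.44 ± 6.91 in D and 170.2 ± 121 in CK (SD, n = 3 each). The adjusted p of limma's F-test was 0.0191 and passed 0.05 no longer without DBSi-1 (0.057), DBSi-2 (0.0659), CK-1 (0.0505) or CK-2 (0.0508).

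**Figure D5:**
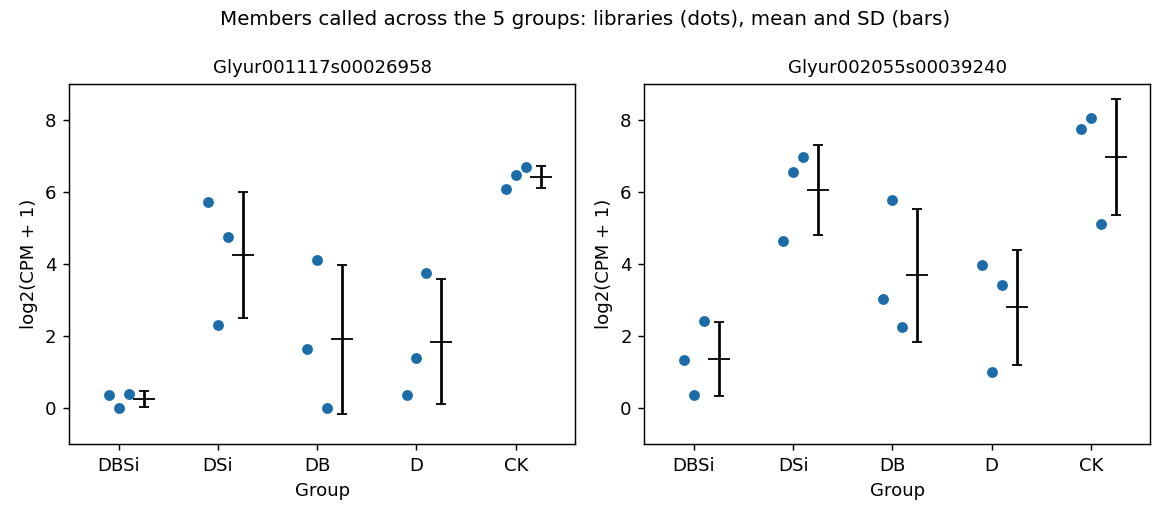
Level of the 2 members that passed limma's F-test over 5 groups, as log2(CPM + 1) by group, with points for libraries and bars for the group mean ± SD (n = 3). The 3 CK libraries lie above all others in Glyur001117s00026958, and Glyur002055s00039240 overlaps between CK and DSi.

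On the log2 scale D was lower than CK in 74 of the 100 members and higher in 26, with a median D minus CK of -1.21, against -0.05 in the window. DSi was higher than D in 73 and lower in 26, with a median of 0.73 against 0.04 in the window. DB minus D had a median of 0.05 with 52 higher, and DBSi minus D a median of -0.20 with 39 higher. Over the window D was higher than CK in 41.6% of genes. DSi was higher than D in 56.3%, DB in 46.5% and DBSi in 47.9%. In the largest block D minus CK had a median of -1.25 and DSi minus D of 1.62, with DSi above D in 38 of 41. None of these differences passed limma's adjusted test gene by gene.

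Single libraries moved these counts. Without D-2, D was higher than CK in 40 of 100 members, and without CK-2, the library in which the second block is high, in 34. DB was higher than D in 31 of 100 without DB-1 and in 69 without DB-3, so the direction of DB against D over the members turned with the library left out. DSi against D kept 64 to 76 members higher and DBSi against D kept 36 to 49 higher over the libraries left out. The low libraries were also those with the fewest genes read in their groups. At least 1 read was found for 23832 genes in DBSi-2, 24656 in DSi-2, 23011 in DB-3, 23722 in D-2 and 24687 in CK-3, against 24056 to 24581 in the other DBSi libraries, 24731 to 25321 in DSi, 24293 to 24586 in DB, 24428 to 24841 in D and 24812 to 25237 in CK. Total reads did not follow that order in every group, since DBSi-2 held the most reads of its group and CK-1 fewer than CK-3. The part of this in the members' low values was not tested.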

How the data were processed

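Full-length cDNA of 15 whole-seedling libraries was read on a nanopore instrument after 14 cycles of PCR from 1 µg of RNA, per the labels' protocols. The authors deposited CPM values per gene and per isoform, per the file headers with 1 column for each library. The tool minimap2 was used, which the submitters' processing notes name without a version. No source used here gives the counting tool or the genome build. Of the deposited CPM values 100% were whole multiples of 1 read within a tolerance of 0.01, so whole reads were recovered (50341895 in all).

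Members were ranked in Python 3.11.15 with a pseudocount of 1. The members, the lists and the groupings of members were chosen with earlier results of these data known. Deviations are from the group mean of log2(CPM + 1). Counting variance was estimated from recovered reads. Isoforms were joined to genes by ID, and by an exact match of reads in all 15 libraries where IDs differed.

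Group means were tested with limma 3.58.1 in R 4.3.3 on log2(CPM + 1), two-sided, with an intensity trend, all 15 libraries in 1 fit and Benjamini-Hochberg adjustment over 22654 genes with 1 CPM or more in at least 3 libraries. edgeR 4.0.16 and DESeq2 1.42.0 were run on recovered reads as alternatives. A log2 difference understates the change of low genes. On counts simulated for D against CK over 22654 genes, limma found 92% of genes changed 4-fold, 25% of genes changed 2-fold, and false calls made up 4.88%. The changed genes were drawn at random from all but low genes. These shares therefore do not hold for the members, whose median standard error was 1.26, against 0.32 over all genes tested.

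Named genes are the 10 most variable members, the member with the largest positive and largest negative deviation in each library that was farthest from its group mean in 8 or more members, called members without overlap (none), ranks 98 to 103, the member with the most isoforms, and the 2 with the widest range of the leading isoform's share among members with at least 2 isoforms of 5% or more of reads. All other genes named were chosen after their values were seen. Alternatives were pseudocounts, filters, scaling, no trend, library weights, compared groups alone, a replicate block, other rule settings and each library left out.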

Additional observations from a re-analysis of the deposited data

How the results depend on the processing

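Depth limits low values: 43 members stood at 0 in at least 1 library, and 10 of the 41 in the largest block had 3 reads or fewer in DB-3. Of the members 45 were kept with a window of 50 to 500 CPM, 45 with the variance divided by counting variance, and 62 without CK-3, D-2 and DB-3 together, a setting added after seeing the data. Leaving out 1 library kept 82 to 95. With members chosen on the other 4 groups the median SD was 1.13 in DBSi, 1.07 in DSi, 1.79 in DB, 0.844 in D and 1.51 in CK. DESeq2 called 4 members in D against CK, 2 in DB against D and 1 in DSi against D, and a fit of the compared groups alone called 1 in DSi against D. Over all groups edgeR's F-test called 5 members and DESeq2's likelihood ratio test called 7, and limma's F-test called 1 to 3 with a library left out. With a library left out, limma called 0 to 2 members in D against CK (2 without CK-1) and 0 in each of the comparisons of DB, DSi and DBSi with D. Members higher in D than in CK numbered 24 to 40, and those higher in DB than in D 31 to 69, with a library left out. The replicate block left 0 members called in each pairwise comparison and 2 in the F-test. Between the deviations of samples with the same number, r ran from -0.22 to 0.33 over 30 pairs, 8 of them over 0.1, with a mean of 0.009. Some of these pairs deviated together and others did not. A mean over all pairs cannot decide whether some samples of a number were handled together. Of the values recomputed, 177 were equal to the reported value or within a set ratio of it, and the 20 others are given here. The median SDs with members chosen on the other 4 groups were counted among the 20 whatever their size. Among the 177 were the 75 members kept with the median of group variances. So were the 44 members higher in DB than in D without DB-2, against 52 with all libraries. The cause of each move was not tested.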
